A study of Mus musculus with 2 samples.

Results

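The genes described here encode histone and DNA modifying enzymes, with the bromodomain readers of acetylated histones. They were taken by symbol: Hdac, Sirt, Kat, Brd, Kmt, Setd, Ezh, Kdm, Prmt, Dnmt or Tet followed by a digit, with at least 1 protein-coding transcript. That rule gave 86 of the 55536 annotated genes, in 11 symbol classes. It used names and not levels. It leaves out enzymes with other names, such as Ep300 and Ehmt2, which are given as partner lists, and it takes in Brd3os, a neighbour of Brd3 that is not known as a bromodomain protein.

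RNA was polyA-selected and sequenced from macrophages grown out of the bone marrow of C57BL/6J mice. All samples form 1 group with 2 replicate libraries. The cells received 100 ng/ml of lipid A for 12 h, spent 12 h after a wash without it, and were harvested 120 min after lipid A was given again at 100 ng/ml. Lipid A is the part of lipopolysaccharide that the receptor TLR4 senses. Other label fields call the agent lipoprotein A, and the molecule field reads total RNA. Sex and age were not collected, and both libraries carry the same donor identifier, so part of their difference may be technical. No untreated cells, and none exposed a single time, were analysed here, so every value below is a level after the repeated exposure or a comparison of the 2 libraries. No test between conditions was possible.

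Chromatin is marked by enzymes that add a chemical group, enzymes that remove it and proteins that read it. Acetyltransferases (Kat) place acetyl groups on histone lysines, deacetylases (Hdac and the NAD-dependent Sirt) take them off, and bromodomain proteins bind them. Lysine methylation is added by Kmt, Setd and Ezh enzymes and removed by Kdm enzymes, arginine methylation is added by Prmt enzymes, and methylated cytosine in DNA is made by Dnmt enzymes and oxidised by Tet enzymes. In macrophages these enzymes are known for their part in the opening and closing of inflammatory gene loci.

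For several members the libraries differed less in reads than in TPM, a level per transcript length scaled to a fixed total over the whole table. For 3 of them, Brd2, Kmt2b and Kat2b, part of the gap lay in short transcripts that the annotation does not class as protein-coding, and an end of each is printed for that reason. Dnmt3a-214 is printed because it led its gene in both libraries, with no such gap. Capitals mark bases outside the exons of every protein-coding transcript of the gene, called intronic here, and lower case marks bases shared with coding exons. All are from mm10, read 5′ to 3′ on the gene's strand.
Brd2-217, start, chr17:34116276-34116436, minus strand: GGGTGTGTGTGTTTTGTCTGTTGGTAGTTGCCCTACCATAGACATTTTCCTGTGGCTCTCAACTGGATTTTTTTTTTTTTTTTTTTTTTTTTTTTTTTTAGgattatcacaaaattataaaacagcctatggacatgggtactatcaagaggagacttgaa
Kmt2b-208, start, chr7:30577092-30577164, minus strand: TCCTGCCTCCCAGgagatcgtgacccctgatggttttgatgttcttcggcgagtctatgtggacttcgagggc
Kat2b-207, end, chr17:53663590-53663674, plus strand: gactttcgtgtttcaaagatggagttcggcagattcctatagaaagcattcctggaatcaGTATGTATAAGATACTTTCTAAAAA
Dnmt3a-214, start, chr12:3897420-3897609, plus strand: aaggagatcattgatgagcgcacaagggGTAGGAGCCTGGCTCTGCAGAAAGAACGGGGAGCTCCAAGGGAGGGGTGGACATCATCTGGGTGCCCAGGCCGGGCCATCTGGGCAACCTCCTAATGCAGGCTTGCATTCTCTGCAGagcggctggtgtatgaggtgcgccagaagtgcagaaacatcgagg

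Brd2-217 has 654 bases, of which 553 are coding bases of other Brd2 transcripts and 101 are intronic. Its intronic bases hold a run of 32 T just before the exon. Kmt2b-208 has 651 bases and only 13 of them are intronic, Kat2b-207 has 402 with 32 intronic, 25 of them in the printed end, and Dnmt3a-214 has 369 with 117 intronic. Most bases of each of these transcripts are therefore shared with coding transcripts of the same gene.

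The libraries held 45377715 and 32112416 expected counts, which are estimated reads per gene. The members' share was 0.359% in the first (95% binomial interval, Clopper-Pearson, of 0.358 to 0.361%) and 0.428% in the other (0.426 to 0.430%). Such intervals and the floor of 3 reads cover counting error only. All 8 macrophage markers were at 10 TPM or above in both libraries, and every T cell, B cell, NK cell, erythroid and stromal marker was under 1 TPM in both. Neutrophil markers summed to 63.1 TPM in replicate 1 and 6.48 in replicate 2, and 4 of 6 cycling-cell genes reached 10 TPM in both. The megakaryocyte list summed to 274 and 95.9 TPM, nearly all of it Pf4 at 271 and 95.2. The part of these gaps in any result below was not tested.

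Most members were expressed. In both libraries 76 of the 86 members (88.4%) were at 1 TPM or above, against 44.4% of all 22028 protein-coding genes. At 10 TPM in both the count was 43 (50.0%), against 27.2%. The mean of the libraries was at least 10 TPM for 50 members, between 1 and 10 for 26 and under 1 for 10. The median over members of the mean was 11.3 TPM, against 0.31 over all protein-coding genes. Among genes at 1 TPM or above in each library it was 13.1 TPM over the 76 members and 18.2 over 9773 protein-coding genes. Ordered by mean level, 77 of the 85 neighbouring pairs had ranges over the libraries that overlapped, so the order of neighbours is mostly within the spread.

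Class medians of the mean TPM fell in a narrow band for most classes. The Ezh class, with 2 genes, had the highest median at 18.7 TPM, followed by Brd at 17.0, Kmt at 16.2, Kat at 15.2, Prmt at 12.2, Setd at 11.2, Sirt at 11.0 and Kdm at 9.20. Tet was at 7.40 and Hdac at 4.12, and Dnmt, where only 2 of 5 genes were expressed, at 0.74 TPM. Levels within a class were spread widely, for Brd from 0.84 (Brd3os) to 393 TPM (Brd2) and for Kdm from 0 to 40.1 TPM. The same median taken within each library ran from 14.0 to 19.9 TPM for Brd, from 11.6 to 18.5 for Kmt and from 14.0 to 16.7 for Kat, which leaves the order of these 3 classes within the spread. Hdac, at 4.11 and 4.55 TPM, lay below the other classes except Dnmt in both libraries.

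**Figure D1:**
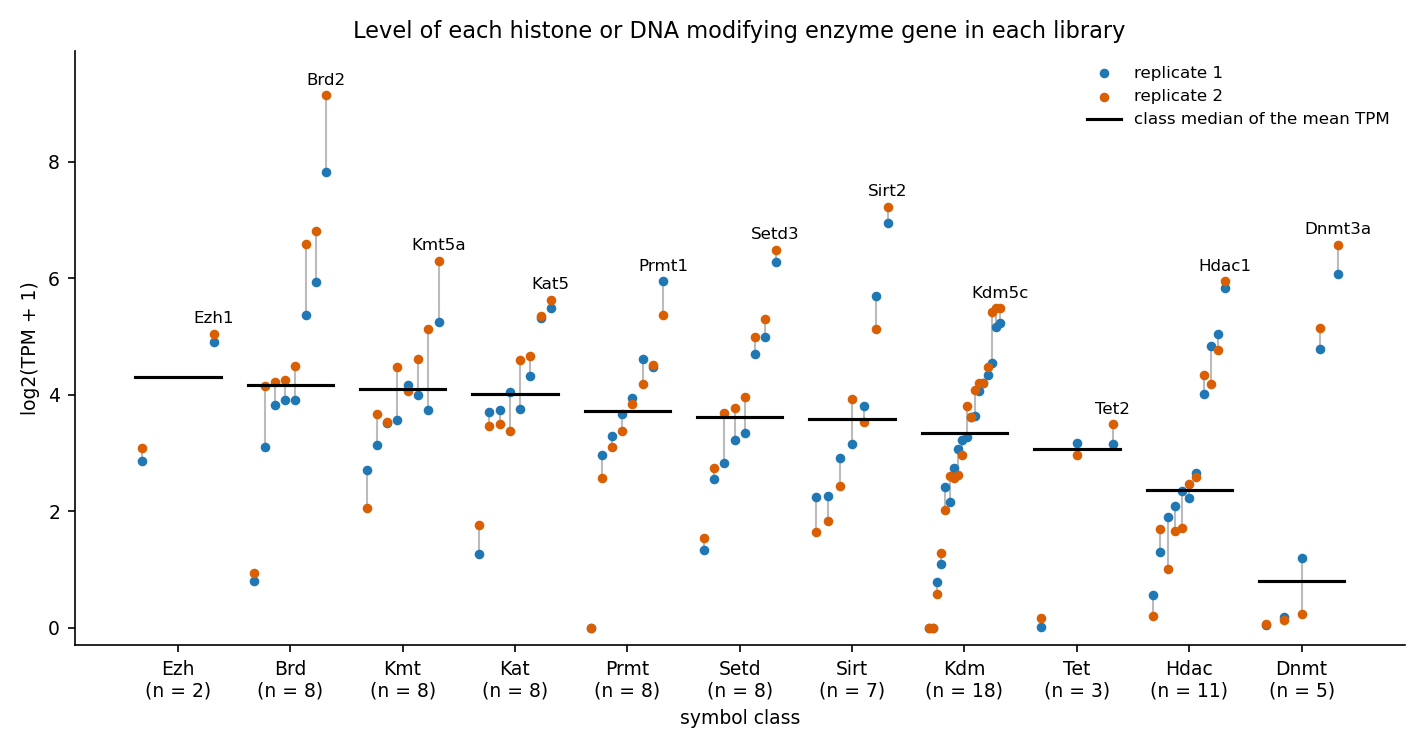
Level of the 86 members as log2(TPM + 1), with 1 pair of points per gene, joined by a grey line, for replicate 1 and replicate 2, and a black bar for the class median of the mean TPM. Brd2 stands highest at 225 and 562 TPM, and in the Dnmt class only Dnmt3a and Dnmt1 stand above 10 TPM.

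Among the zinc-dependent deacetylases, the class I genes Hdac1 and Hdac3 were the highest by mean level. Hdac1, a catalytic subunit of the NuRD, SIN3 and CoREST complexes, was at 56.1 and 60.7 TPM in replicates 1 and 2. Its close paralog Hdac2 was at 15.1 and 19.3 TPM. Hdac1 was thus above Hdac2 in both libraries with no overlap. Hdac3, the catalytic subunit of the NCoR complex, was at 31.8 and 26.1 TPM. Of the class IIa genes, whose products shuttle between nucleus and cytosol, Hdac5 alone passed 10 TPM, at 27.7 and 17.3. The other class IIa genes, Hdac4, Hdac7 and Hdac9, lay between 1.01 and 3.28 TPM. Hdac8, Hdac6 (a cytosolic tubulin deacetylase) and Hdac10 lay between 2.29 and 5.29 TPM. Hdac11, the only class IV enzyme, was nearly absent at 0.47 and 0.15 TPM.

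By gene TPM, sirtuins split by the place of their products. Sirt2, mainly a cytosolic deacetylase, was the second highest member at 123 and 149 TPM. Its mean was 136 ± 18.4 TPM (SD, n = 2). Sirt2 lies on chromosome 7 (28766735 to 28788661) and overlaps exons of Nfkbib on the other strand, so reads of the pair may not be separable. Sirt7, found in the nucleolus, was at 50.5 and 33.8 TPM, and its exons overlap those of Mafg and Mir6936 on the same strand. Sirt6, a nuclear enzyme, was at 13.0 and 10.5 TPM, and Sirt1, which deacetylates histones and transcription factors, was at 7.88 and 14.2. The ranges of Sirt6 and Sirt1 overlap. The mitochondrial sirtuins Sirt3, Sirt4 and Sirt5 were all lower, between 2.14 and 6.53 TPM. In coding transcripts alone Sirt1 was at 4.29 and 10.3 TPM and Sirt3 at 6.50 and 4.14. On that measure Sirt1 was below Sirt3 in replicate 1, so the split did not hold there.

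All 8 acetyltransferase genes were at 1 TPM or above in each library, and 6 were at 10 or above. In the MYST family, Kat5, the Tip60 subunit of the NuA4 complex, was at 43.9 and 48.4 TPM, and Kat7, also called HBO1, was at 38.6 and 39.8. Kat6a was at 18.9 and 24.5 TPM while its paralog Kat6b was at 1.42 and 2.40. Kat8, which acetylates lysine 16 of histone H4, was at 15.6 and 9.37 TPM. The GNAT enzymes Kat2a and Kat2b were at 11.9 and 10.03 TPM and at 12.5 and 23.2 TPM. Their coding transcripts alone were at 10.5 and 7.35 TPM for Kat2a and at 11.8 and 13.8 TPM for Kat2b. Kat14, a subunit of the ATAC complex, was at 12.3 and 10.3 TPM, and part of its exons is shared with Pet117 on the same strand.

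Bromodomain genes included the highest member of all. Brd2, of the BET family, was at 225 TPM in replicate 1 and 562 TPM in replicate 2, from 18652 and 21744 reads. Brd2 lies on chromosome 17 (34112023 to 34122634) and overlaps exons of H2-DMa and CR974462.3 on the other strand. Brd3, also of the BET family, was at 7.59 and 16.7 TPM. Brd2 was thus above Brd3 in both libraries, with no overlap. Brd7, a subunit of the PBAF remodelling complex, was at 40.1 and 94.98 TPM, and Brd9, of the non-canonical BAF complex, at 14.0 and 21.6. Brd8, a NuA4 subunit, was at 14.1 and 18.2 TPM. Brd1, a scaffold of MYST acetyltransferase complexes, was at 13.1 and 17.6 TPM. Brd9, Brd8 and Brd1 overlapped in range. Brd3os was at 0.75 and 0.93 TPM, and the class median without it was 17.8 TPM.

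Lysine methyltransferases were all present at 1 TPM or above in both libraries. The 5 Kmt2 genes, whose products methylate lysine 4 of histone H3 or are related to those that do, all reached 10 TPM in both libraries. Kmt2b was at 12.3 and 33.8 TPM, Kmt2e at 14.9 and 23.4 and Kmt2d at 17.0 and 15.7. Kmt2a was at 10.9 and 21.3 TPM and Kmt2c at 10.4 and 10.5. In coding transcripts alone, Kmt2b was at 9.31 and 10.3 TPM and Kmt2a at 10.2 and 11.2, so these were close to even between the libraries. A level in coding transcripts can also rest on a short transcript. Kmt2d-204, classed as coding and 899 bases long, held 57.9 and 57.5% of the TPM of Kmt2d from 4.27 and 4.48% of its reads. Kmt2d-201, of 19823 bases, was at 6.91 and 6.12 TPM. These Kmt2d transcripts were chosen after their values were seen. Of the enzymes for lysine 20 of histone H4, Kmt5a, which places the first methyl group, was at 37.0 and 77.8 TPM. Kmt5b and Kmt5c, which add further methyl groups, lay between 3.18 and 11.8 TPM.

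Setd3, known as the histidine methyltransferase of actin, led the Setd class at 76.9 and 88.5 TPM. Setd5 was at 30.9 and 38.6 TPM, and Setd2, which trimethylates lysine 36 of histone H3, at 24.8 and 30.7. Setd1a and Setd1b, the catalytic subunits of the SET1 complexes, were at 8.33 and 12.7 TPM and at 9.20 and 14.7 TPM. Their ranges overlap. Setd6, Setd7 and Setd4 lay between 1.53 and 11.9 TPM. Of the catalytic subunits of Polycomb repressive complex 2, Ezh1 was at 28.8 and 32.1 TPM and Ezh2 at 6.31 and 7.48. Ezh1 was above Ezh2 in both libraries, and the means were 30.4 ± 2.35 and 6.90 ± 0.83 TPM (SD, n = 2).

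Demethylases covered every subfamily, with 15 of 18 genes at 1 TPM or above in both libraries. Kdm5c, an X-linked enzyme that removes methyl groups from lysine 4 of histone H3, was at 36.5 and 43.7 TPM. Its Y-linked counterpart Kdm5d was listed at 0 reads in each library, but the second quantification assigned it 20.1 and 4.12 reads, at 0.09 and 0.04 TPM. The deposited bounds on its TPM were 0.040 to 0.32 and 0.057 to 0.46. They leave out its listed level of 0, so they cannot show whether Kdm5d was present. It was very low by both quantifications and not shown to be absent. Within the same subfamily Kdm5a was at 11.5 and 16.0 TPM and Kdm5b at 1.14 and 1.43. The Kdm5 genes were thus spread up to 43.7 TPM. Kdm4a, which acts on lysines 9 and 36 of histone H3, was at 34.8 and 43.6 TPM, above Kdm4b and Kdm4c at 5.16 to 8.32, and Kdm4d had 0 reads.

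Kdm2a, which acts on lysine 36 of histone H3, was at 22.3 and 41.6 TPM, and its paralog Kdm2b was at 5.70 and 4.91. Kdm1a, the flavin-dependent enzyme LSD1, was at 19.1 and 21.3 TPM, against 3.48 and 5.06 for Kdm1b. For lysine 27 of histone H3, Kdm6a was at 17.3 and 17.4 TPM and Kdm6b, also called JMJD3, was at 8.69 and 13.0. In each of these 3 pairs the first gene was above the other in both libraries. Kdm3b and Kdm3a, which act on lysine 9 of histone H3, were at 15.7 and 17.4 TPM and at 11.3 in both libraries. Kdm7a was at 4.32 and 3.07 TPM and Kdm8 at 0.73 and 0.49.

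Arginine methyltransferases were led by Prmt1, the main enzyme for asymmetric dimethylation, at 60.5 and 40.1 TPM. Prmt5, the main enzyme for symmetric dimethylation, was at 21.2 and 21.7 TPM. Prmt9 was at 23.3 and 17.3 TPM, Prmt2 at 14.4 and 13.4 and Prmt7 at 11.7 and 9.38. Prmt1 was above the others in both libraries, while the ranges of Prmt5 and Prmt9 overlap. Prmt6 and Prmt3 lay between 4.91 and 8.84 TPM, and Prmt8 was listed at 0 reads in both libraries and at 2.00 in each by the second quantification.

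DNA methyltransferases fell into expressed and near-silent genes. Dnmt3a, a de novo enzyme, was at 66.5 and 94.4 TPM from 6873 and 6199 reads, and Dnmt1, the maintenance enzyme, was at 26.6 and 34.2. The other de novo genes had few reads: 17 and 7 for Dnmt3b and 2 and 2 for Dnmt3c. The regulatory factor Dnmt3l had 11 and 4 reads, and stood at 1.30 and 0.18 TPM. The low genes thus rest on too few reads to be ordered. Dnmt3a overlaps exons of the antisense gene Dnmt3aos, which was at 4.52 and 5.47 TPM. Of the Tet dioxygenases, Tet2 was at 7.95 and 10.3 TPM and Tet3 at 7.97 and 6.84, with overlapping ranges, and Tet1 had only 3 and 12 reads.

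The deposited tables also give a lower and an upper bound on each TPM, at a level that is not stated. For 19 members (22.1%) the TPM lay outside its own bounds in at least 1 library, against 55.3% of all protein-coding genes. Among those at 1 TPM or above in each library it was 12 of 76 members (15.8%), against 17.97%. Brd2 lay above its bounds in both libraries, at 225 TPM against an upper bound of 224 and at 562 against 559. It was the only member of the 76 to do so, while 905 of the 9773 protein-coding genes at that level did. Sirt2 lay above its bounds in replicate 2, at 149 TPM against 148. For Hdac11 in replicate 1 the bounds were 0.56 to 9.83 TPM against a TPM of 0.47. For Tet1 in replicate 2 the bounds were 0.60 to 3.01 against a TPM of 0.13. The values of such low genes are uncertain. Exons of another gene were overlapped by 35 members, on the other strand in 30 and on the same strand in 8.

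Members that act in the same complex were set beside the rest of its subunits. Over all protein-coding genes, 27.2% reached 10 TPM in both libraries. Among those at 1 TPM or above in each library, without genes of the mitochondrial genome, it was 61.2%. The counts of listed genes at 10 TPM, here and in the lists that follow, stand beside these shares. Several lists were near or below the second share. In NuRD, the remodelling and deacetylase complex that holds Hdac1 and Hdac2, all 11 listed subunits reached 10 TPM in both libraries. Its highest was the remodeller Chd4 at 97.2 and 202 TPM, then Mbd2 at 80.1 and 127 and Rbbp7 at 68.4 and 59.6. The 5 listed genes of the NCoR complex, which activates Hdac3, also reached 10 TPM, with Ncor1 at 60.2 and 159 TPM and Gps2 at 42.0 and 61.5. In the SIN3 list it was 7 of 10, led by Sin3b at 121 and 101 TPM, Brms1 at 77.5 and 75.7 and Sap18 at 52.1 and 33.7. In the CoREST list, the partners of Kdm1a, it was 2 of 5, with Phf21a at 20.3 and 37.0 TPM, Hmg20b at 26.6 and 30.7 and Rcor1 at 9.03 and 11.4.

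Of the Polycomb complex 2 subunits that work with Ezh1 and Ezh2, 4 of 7 reached 10 TPM in both libraries. They were led by Aebp2 at 46.8 and 71.3 TPM, Eed at 37.1 and 37.8 and Suz12 at 14.9 and 13.4. Of the COMPASS subunits that serve the Kmt2 and SET1 enzymes, 8 of 10 did, led by Hcfc1 at 33.5 and 40.4 TPM, Dpy30 at 34.1 and 26.8 and Rbbp5 at 25.5 and 26.4. Readers and cofactors of DNA methylation reached it in 4 of 7 genes, with Mbd1 at 29.9 and 33.0 TPM and Tdg at 26.8 and 30.1. Uhrf1, which brings Dnmt1 to replicated DNA, was at 6.18 and 4.52 TPM.

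Enzymes outside the symbol rule were at similar levels. Of 15 other lysine methyltransferases 7 reached 10 TPM in both libraries, with Ehmt2, the G9a enzyme for lysine 9 of histone H3, at 77.5 and 64.2 TPM. Nsd3 followed at 39.0 and 56.0 TPM and Setdb2 at 23.2 and 23.9. Of 8 other demethylases 5 reached it, led by Riox2 at 26.8 and 37.6 TPM, Jmjd1c at 25.4 and 23.5 and Jmjd6 at 14.2 and 14.5, while Y-linked Uty had 0 reads. Of 10 other acetyltransferases 8 did, with Hat1 at 83.6 and 67.3 TPM, Ncoa3 at 34.9 and 41.4 and Ep300, a coactivator, at 22.6 and 19.3. Enzymes that make or consume the cofactors and cosubstrates had 8 of 10 genes at 10 TPM and a median of 58.1. Nampt, which makes the NAD precursor that sirtuins depend on, was at 133 and 167 TPM, Mat2a, which makes the methyl donor, at 91.3 and 91.0, and Ogdh, which consumes 2-oxoglutarate, at 78.3 and 78.7.

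Between the libraries, members mostly kept within 2-fold. Counts were scaled to library sizes and compared for the 80 members with a mean of at least 10 reads. Only 2 of them (2.50%) were at least 2-fold apart, against 11.3% of all 12552 genes compared, which include low and non-coding genes. Among protein-coding genes at 1 TPM or above in each library it was 1 of 76 members (1.32%), against 6.15%. This ratio compares libraries and not conditions. Brd7, with 3033 and 4359 reads, was 2.14-fold higher in replicate 2 (95% counting interval 2.04 to 2.24). Hdac11, with 35.0 and 4.35 reads, was 4.92-fold higher in replicate 1 (2.10 to 22.8), and its low count makes that fold uncertain.

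Classes leaned to different libraries. The median log2 count ratio of replicate 2 to replicate 1 was 0.11 over the members and -0.02 over all genes compared. Of the members, 47 (58.75%) were higher in replicate 2 and 33 in replicate 1. Over all genes compared, 48.8% were higher in replicate 2. All 8 Brd genes were higher in replicate 2, with a class median of 0.54, and 7 of 8 Setd genes were, with a median of 0.41. All 7 Prmt genes compared were higher in replicate 1, with a median of -0.42, though Prmt5 was even (0.00) and changed side under other scalings. In the Sirt class 5 of 7 were higher in replicate 1, with a median of -0.55, and Sirt1 stood apart at 0.90. The Kdm, Kat and Hdac medians lay between -0.05 and 0.07. With 1 library on each side these leanings have no replicate check.

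**Figure D2:**
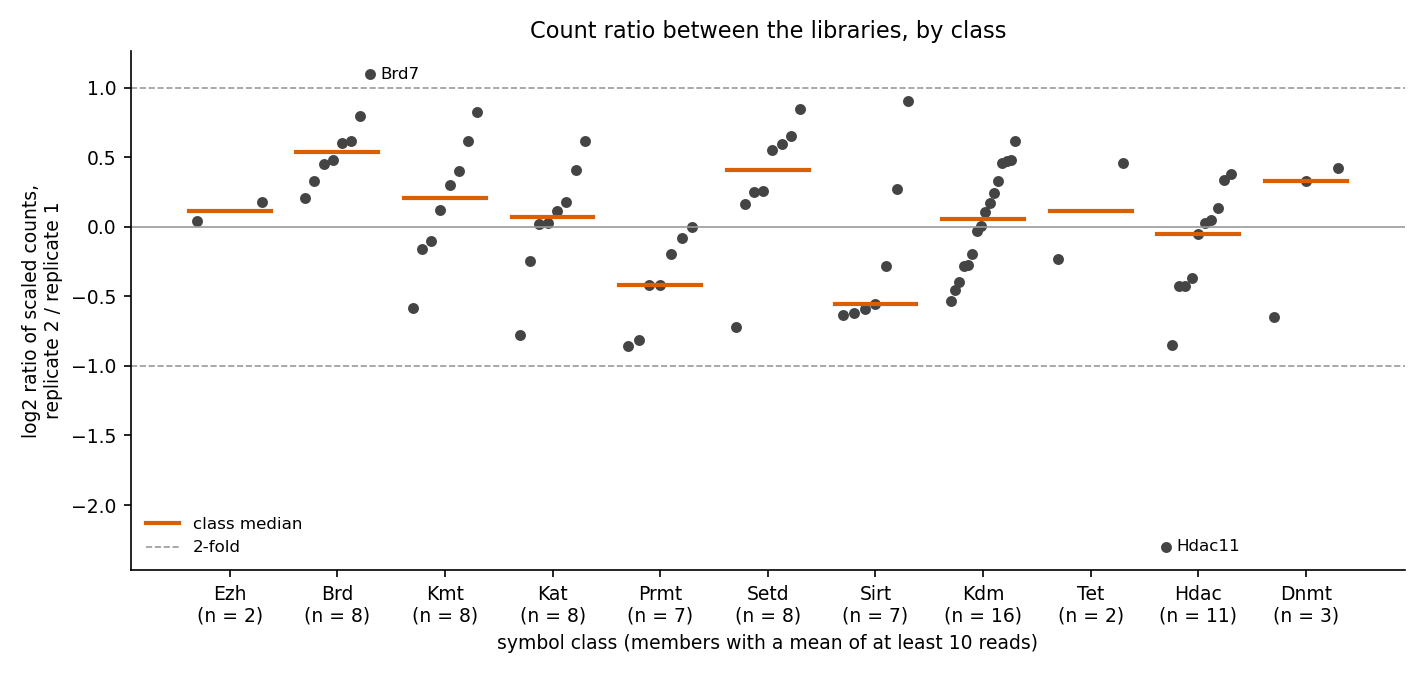
Log2 ratio of scaled counts, replicate 2 over replicate 1, for the 80 members with a mean of at least 10 reads, by class, with a bar for the class median and dashed lines at 2-fold. Only Brd7 and Hdac11 lie outside 2-fold, all Brd points lie above 0 and the Prmt points lie at or below it.

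On the TPM scale the libraries stood further apart for some members. With log2(TPM + 1), 5 of the 80 members (6.25%) were at least 2-fold apart, against 6.72% of all genes compared. These shares are close, but the genes compared include low and non-coding ones. For low genes the pseudocount of 1 holds the ratio down. A share among protein-coding genes at 1 TPM or above in each library was not taken for this ratio. All 5 were higher in replicate 2: Brd2, Brd3, Brd7, Kmt2b and Kmt5a. Of these, 4 were not 2-fold apart in counts. Kmt2b was 1.32-fold higher in counts and 2.76-fold in TPM. For Brd2 the folds were 1.73 and 2.51, and for Kmt5a 1.77 and 2.10. In protein-coding transcripts alone the TPM fold was 1.11 for Kmt2b, 1.89 for Brd2 and 0.94 for Kmt5a. For Brd3 the TPM fold was 2.20 with all transcripts and 2.19 with coding ones, against 1.52 in counts. Its coding transcripts were divided differently in the libraries. Brd3-202, of 5272 bases, held 50.3 and 10.3% of the gene's TPM, and Brd3-206, of 2221 bases, held 30.1 and 61.2%. These Brd3 transcripts were chosen after their values were seen.

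**Figure D3:**
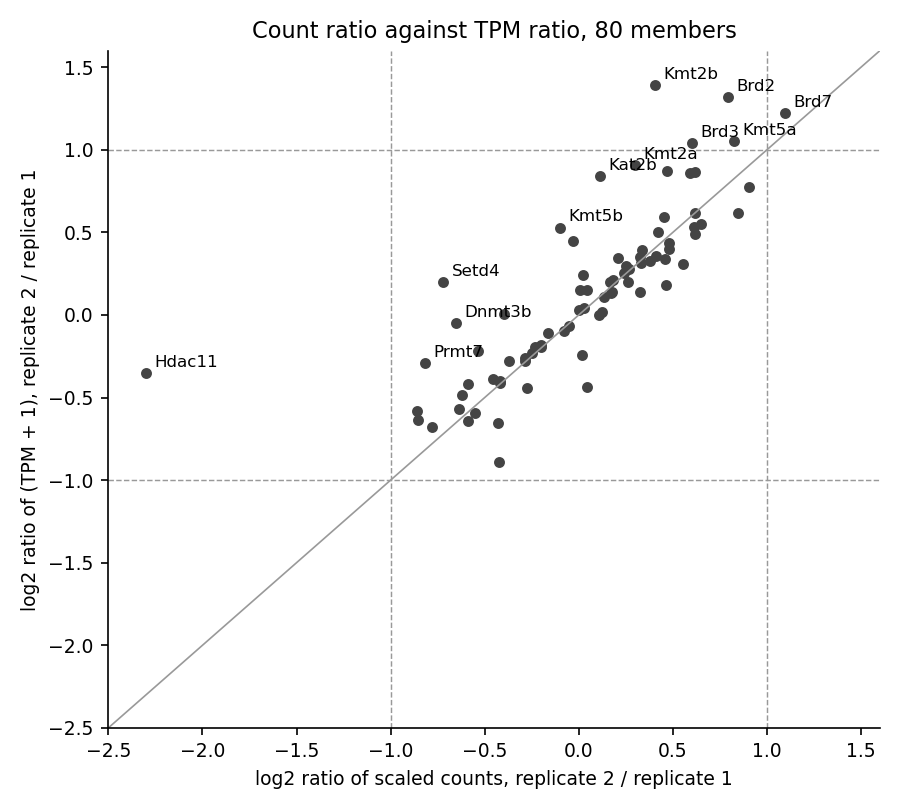
Log2 ratio of replicate 2 to replicate 1 in scaled counts (x axis) and in TPM + 1 (y axis) for 80 members, with the line of equality and dashed lines at 2-fold. Kmt2b, Brd2, Kat2b and Kmt2a lie above the line, with a TPM ratio above their count ratio, and Hdac11 lies furthest left.

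Among genes at 10 TPM or above in both libraries, transcripts not classed as coding held a larger share of summed TPM in members than in all protein-coding genes. These are retained introns, transcripts subject to nonsense-mediated decay and processed transcripts without a reading frame. Over the 43 members at 10 TPM in both libraries, coding transcripts held 88.2% of the summed TPM in replicate 1 and 76.5% in replicate 2. Over the 5990 protein-coding genes past the same threshold it was 92.6 and 91.1%. Such sums give the highest genes the most weight, and the sets were not matched for level. Brd2 made up 62.1% of the members' retained-intron TPM in replicate 2, so that sum rests largely on 1 gene. The annotation lists a median of 9 transcripts for these members, 5 of them not coding, against 6 and 3.

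Counted by gene, non-coding transcripts held at least 25% of the TPM in 6 of 43 members in replicate 1 (14.0%), against 13.8% of such genes. In replicate 2 it was 9 of 43 (20.9%), against 17%. Both shares are near the background. The share was at least 25 points higher in replicate 2 in 4 members (9.30%), against 3.37%. It was that much higher in replicate 1 in 0 members, against 0.568%. The 4 were Kat2b, Kmt2a, Kmt2b and Kmt5a. With so few genes the count of 4 is a description of these libraries.

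In each of these genes, and in Brd2, 1 transcript held most of the gap in non-coding TPM. Brd2-217, whose start is printed above, was at 0.24 and 177 TPM from 2.80 and 1431 reads. It held 31.5% of the gene's TPM in replicate 2 but 6.58% of its reads. Its effective length, the part of a transcript from which fragments can start, was only 380 bases there. In the second quantification, made without an alignment file, it was at 2.10 and 262 TPM. The gap between the libraries thus appears in both deposited quantifications. Brd2 and the other genes of this and the next paragraph that the rule for named isoforms did not pick were chosen after their values were seen.

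Kmt2b-208, with 13 intronic bases, was at 1.27 and 22.6 TPM from 14.6 and 181 reads, and led the gene in replicate 2 with 66.8% of its TPM from 9.31% of its reads. Kat2b-207 was at 0 and 9.36 TPM from 0 and 27.1 reads, and held 40.4% of the gene's TPM in replicate 2 from 2.30% of its reads. For these transcripts a small share of reads made a large share of TPM. Kmt2a-204, a decay transcript, was at 0.64 and 10.1 TPM. Kmt5a-213 was different, with 1789 bases that all lie in exons of coding transcripts and with 337 and 1361 reads, 52.0% of the gene's reads in replicate 2. It held 19.3 and 54.4% of the TPM of Kmt5a, where Kmt5a-201, a coding transcript, held 58.5 and 23.7%. Brd7-203, a processed transcript of 511 bases, was at 4.95 and 31.6 TPM.

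**Figure D4:**
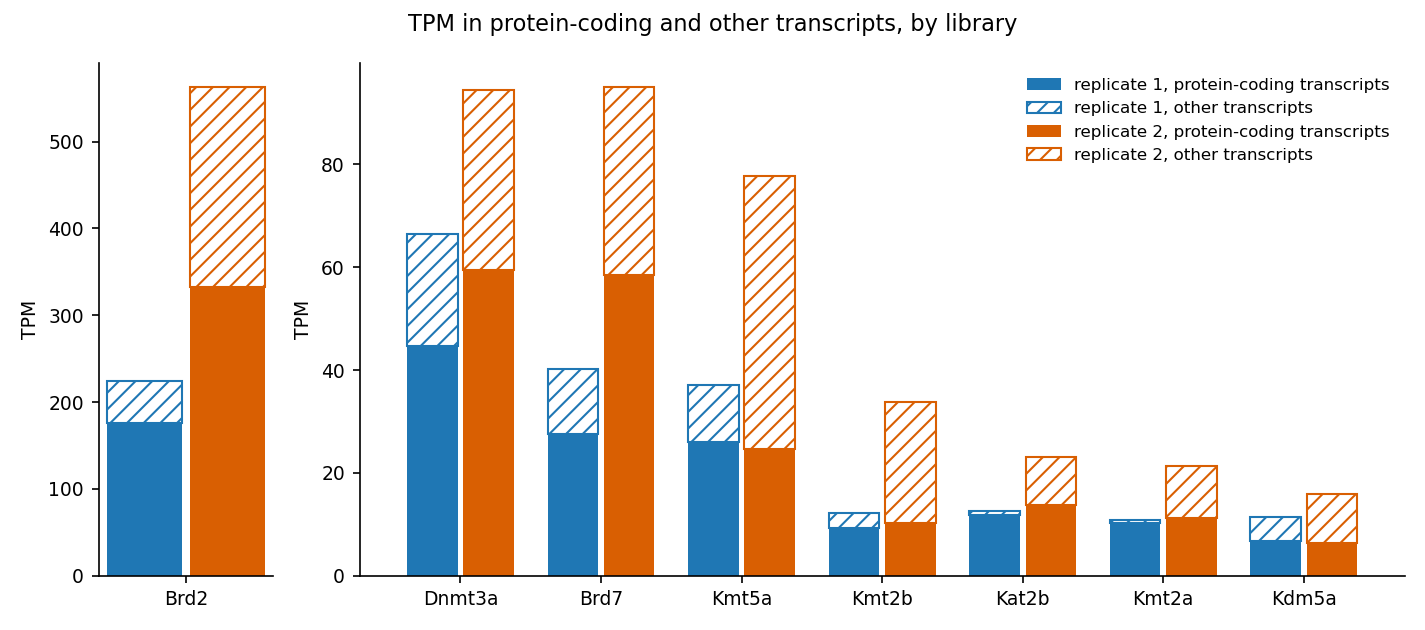
TPM of 8 members in protein-coding transcripts (filled) and in all other transcripts (hatched) for each library, with Brd2 on its own axis. For Kmt5a, Kmt2b, Kat2b and Kmt2a the filled bars are close between the libraries and the hatched bars are taller in replicate 2.

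Dnmt3a was divided in a like way in both libraries. Its leading transcript was Dnmt3a-214, a retained-intron fragment with 32.1 and 36.7% of the gene's TPM, from 71.7 and 79.0 reads. The coding transcript Dnmt3a-205 held 29.6 and 23.6% and led in the second quantification. Coding transcripts together were at 44.7 and 59.5 TPM, so Dnmt3a remained the highest gene of its class without the fragment. Kdm5a also had a large non-coding part, but a less even one. Its non-coding transcripts held 41.3% of the TPM in replicate 1 and 59.95% in replicate 2. The coding transcripts of Kdm5a were at 6.73 and 6.40 TPM.

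Of the 50 members with a mean of at least 10 TPM, the leading transcript was protein-coding in 47 and was the same in the second quantification in 44. It held at least 90% of the gene in both libraries in only 5. For Sirt2, the coding transcripts Sirt2-201 and Sirt2-202 held 46.6 and 41.3% and 43.8 and 38.7%. Prmt1-214 led Prmt1 with 29.8 and 29.6%. Hdac5-202 held 34.2 and 44.6%, and the second quantification put Hdac5-204 first. Kat5-202 held 35.9 and 32.3%, and the second quantification put Kat5-206 first.

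Setd2, Kdm1a, Kdm2a and Kdm6a were named by the rule because the leading transcript held under 60% in both libraries. Setd2-201 held 39.9 and 35.5% of its gene, Kdm1a-202 held 50.9 and 58.3%, Kdm2a-202 held 46.7 and 28.1% and Kdm6a-208 held 39.2 and 50.9%. In the second quantification the mean share was 57.9% for Setd2-201 and 54.0% for Kdm2a-202, against 37.7 and 37.4% here. Reads shared between transcripts make such shares less certain than the level of the gene.

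Promoters of members were rich in CpG, the dinucleotide on which Dnmt and Tet enzymes act. In RefSeq windows of 300 bases around the start of transcription (GRCm38.p6), 71 members matched by symbol. Their median was 22 CpG per window, taken as the mean over a gene's windows, against 7 over all 27025 genes with a window. Over the protein-coding genes with a window that reached 1 TPM in both libraries it was 21, so members were close to other expressed genes. The 62 matched members with a mean of at least 1 TPM had a median of 23.2 and the 9 below it a median of 17.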

How the data were processed

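PolyA RNA-seq tables of 2 replicate libraries of 1 group were used, on mm10 with GENCODE release 21 of the mouse annotation, per the deposited notes. The sources used here do not name the aligner or counter, or say whether counting used strand. The authors deposited expected counts per gene and transcript, which are estimated reads and can be fractions. The deposited TPM is scaled to a fixed total over all 81881 rows of the gene table, and the deposited FPKM to mapped fragments. The deposited percent is a transcript's share of its gene, and the deposited bounds on TPM have no stated level. A second deposited transcript table, made without an alignment file, was summed to genes, with 86 genes missing there set to 0.

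Other values were computed here. Count ratios used a prior of 0.5 reads and TMM library sizes (edgeR 4.0.16), for genes with a mean of at least 10 expected counts. Fold intervals are exact binomial intervals at 95%. TPM ratios used a pseudocount of 1. Rows that name no annotated gene (0.0788 and 0.0771% of counts) stayed out. Totals were 45377715 and 32112416 counts. The ratio step was tested on simulated data. Per-library values are given for members with a mean of at least 10 TPM, the 2 highest of each class and members 2-fold apart in counts. Up to 12 isoform genes are named whose leading transcript was not coding, held under 60% in both libraries or differed in the second quantification. The 3 highest partner genes of each list are named, and Uhrf1 and Uty were chosen after their values were seen. A few genes that these rules name are not reported here. Members and lists were chosen with earlier results of these data known. The results were also computed with size factors of DESeq2 1.42.0, with library totals, and with other filters, thresholds and priors, FPKM, rescaled TPM, coding transcripts, the second quantification and each library alone.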

Additional observations from a re-analysis of the deposited data

How the results depend on the processing

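No paired analysis was possible because all samples form a single group. Members at 1 TPM or more in both libraries numbered 76 to 77 with either library alone, and those at 10 TPM or more 45 to 51. At 20 TPM 21 members remained in both. Members at least 2-fold apart numbered 5 by TPM with a pseudocount of 1, 7 with 0.1, and 1 at a mean count of at least 100. Class medians are TPM and moved further than the SD of the libraries' own medians in these cases. With each library alone the median ran from 4.11 to 4.55 for Hdac, from 7.88 to 10.5 for Sirt and from 8.50 to 9.02 for Kdm. With FPKM, a smaller unit, they were 2.79 for Hdac, 7.41 for Sirt, 10.2 for Kat, 11.4 for Brd, 10.9 for Kmt, 7.54 for Setd, 12.6 for Ezh, 6.21 for Kdm, 8.26 for Prmt and 5.01 for Tet. With TPM rescaled to protein-coding genes they were 4.74 for Hdac, 17.4 for Kat, 21.4 for Ezh, 10.6 for Kdm, 14.0 for Prmt and 8.48 for Tet. With coding transcripts only they were 3.27 for Hdac, 7.30 for Sirt, 11.4 for Kat, 10.6 for Kmt, 17.0 for Ezh, 7.06 for Kdm and 5.50 for Tet. Over members with a mean of at least 1 TPM they were 4.64 for Hdac, 11.3 for Kdm, 13.9 for Prmt, 55.4 for Dnmt and 8.27 for Tet, since fewer members were counted. With the second quantification Hdac was at 3.38, and the other 10 classes stayed within that SD.

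The median log2 ratio of members stayed positive under each scaling, filter and unit tried. All Brd genes compared were higher in replicate 2 under each of them, and 6 or 7 Prmt genes were higher in replicate 1. Of the 54 members that the rule for named genes picks, the second quantification was within the SD for 39, and its mean was between 0.69 and 1.15 times the deposited mean. The counts over coding transcripts, the Brd median without Brd3os and ratios of coding TPM were alternatives chosen after seeing the data. For genes under 10 reads the depth allows no ratio.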

Other observations

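The symbol rule also matched 9 annotated genes without a protein-coding transcript, which were left out. Of these, Dnmt3aos, transcribed from the strand opposite Dnmt3a, was at 4.52 and 5.47 TPM from 156 and 129 reads, and at 5.31 and 7.35 TPM in the second quantification. Dnmt3l-ps1, a pseudogene, had 1 and 2 reads, and the other 7 had 0 reads in both libraries.

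Ncor1 and Chd4, subunits of complexes that hold Hdac3 and Hdac1, were split between the libraries as some members were. Non-coding transcripts held 26.5 and 53.7% of the TPM of Ncor1 and 3.64 and 32.9% of that of Chd4. Counts of Ncor1 were 5871 and 6630 reads and those of Chd4 17501 and 17840, before scaling to library size. After scaling, the log2 count ratio of replicate 2 to replicate 1 was 0.75 for Ncor1 and 0.60 for Chd4. The log2 ratios of TPM + 1 were 1.39 and 1.05, so both genes were higher in replicate 2 on either scale. These genes were chosen after their values were seen, and the cause was not tested.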
